A study of Homo sapiens with 4 samples.

Results

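The genes of DNA replication and nucleotide synthesis were measured by scRNA-seq in OVCA420 cells during treatment with TGF-β1. The 41 genes were chosen by symbol, with earlier results of these data known. Most act in the complexes that license, unwind and copy DNA or are enzymes that supply deoxynucleotides. The list also holds *GMNN*, an inhibitor of licensing, and *UHRF1*, which acts in maintenance DNA methylation. All 41 were found among the 33694 genes of the count matrices. OVCA420 is an established line of epithelial ovarian cancer cells, and the cytokine TGF-β1 is used to induce EMT in it. Cells were untreated (Ctrl) or had been kept in TGF-β1 at 10 ng/mL for 1, 3 or 7 days before a common collection. The study's methods state that TGF-β1 was added again along with new medium during the treatment, and that cells were passaged when needed. There was 1 library per time point, so no difference was tested, no difference has a replicate check, and library and time point cannot be told apart.

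Replication is prepared in G1, when the origin recognition complex, *CDC6* and *CDT1* load the MCM2-7 helicase onto DNA. In S phase *CDC45* and the GINS complex turn the helicase into an active motor, the clamp PCNA is loaded by RFC, and the primase and the replicative polymerases copy the strands. Many of these genes are transcribed around the entry into S phase under control of E2F factors, which are held in check by the RB family. TGF-β1 is known as an inhibitor of G1 progression in many epithelial cells.

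Levels are UMIs of a gene, summed over the cells of a library, per 1000000 UMIs of that library (CPM), with exact 95% counting intervals that cover counting error only. Where several levels after treatment are given, they are in the order 1-day, 3-day and 7-day. The 3144 retained cells held between 25382817 and 32949874 UMIs per library, with a median per cell of 30270 in Ctrl and 32393, 43553 and 43382 at 1, 3 and 7 days. They are part of each library, since 569 to 937 cells were retained per library while the barcode lists hold 2253 to 3372. Between 1 and 7 retained barcodes were shared by any pair of libraries. As a check of the treatment, *PMEPA1*, *SMAD7*, *TGFBI* and *SKIL* were all at least 2-fold above Ctrl at each time point. The epithelial markers *EPCAM*, *KRT8*, *KRT18*, *KRT19* and *CDH1* were present in every library, whereas *MUC16*, *MSLN* and *PAX8* were under 3 CPM and *WT1* was at 0. Of the 6 markers of other cell types, *PTPRC*, *CD3E*, *PECAM1* and *DCN* were at or near 0, *CD68* was between 1.53 and 6.19 CPM, and *CDH5* was at 5.37 CPM in Ctrl.

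After 1 day of TGF-β1, the replication genes were lower than in Ctrl throughout the pathway. Of the 40 genes with a mean of at least 5 CPM over the 4 libraries, 37 were at least 2-fold lower at 1-day, against 8.52% of the 9659 genes that met the same minimum. All 40 were below Ctrl by more than the counting interval, as were 43.1% of all genes, and their median log2 ratio was -1.75, against -0.06 over all genes. *CDT1* had the lowest ratio (-2.69) and *RPA3* the highest (-0.50). The gene below the minimum was *POLA1*, whose mean was 4.83 CPM.

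At 3-day most of this difference was gone. The median log2 ratio to Ctrl was -0.35, 32 of the 40 genes were below Ctrl by more than the counting interval (35% of all genes) and 2 were above it (42.2% of all genes), and 1 of the 40 genes, *GINS3*, was at least 2-fold below Ctrl, against 5.25% of all genes. Compared with 1-day, 32 of the 40 genes were at least 2-fold higher at 3-day (4.78% of all genes), with a median log2 ratio of 1.41 against 0.12 over all genes. At 7-day the median log2 ratio to Ctrl was -0.19, *GINS3* was again the gene at least 2-fold below Ctrl (4.91% of all genes), and 37 of the 40 were at least 2-fold above 1-day (9.63% of all genes). At 7-day 25 of the 40 were still below Ctrl by more than the counting interval (30.9% of all genes) and 3 were above it (46% of all genes).

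**Figure D1:**
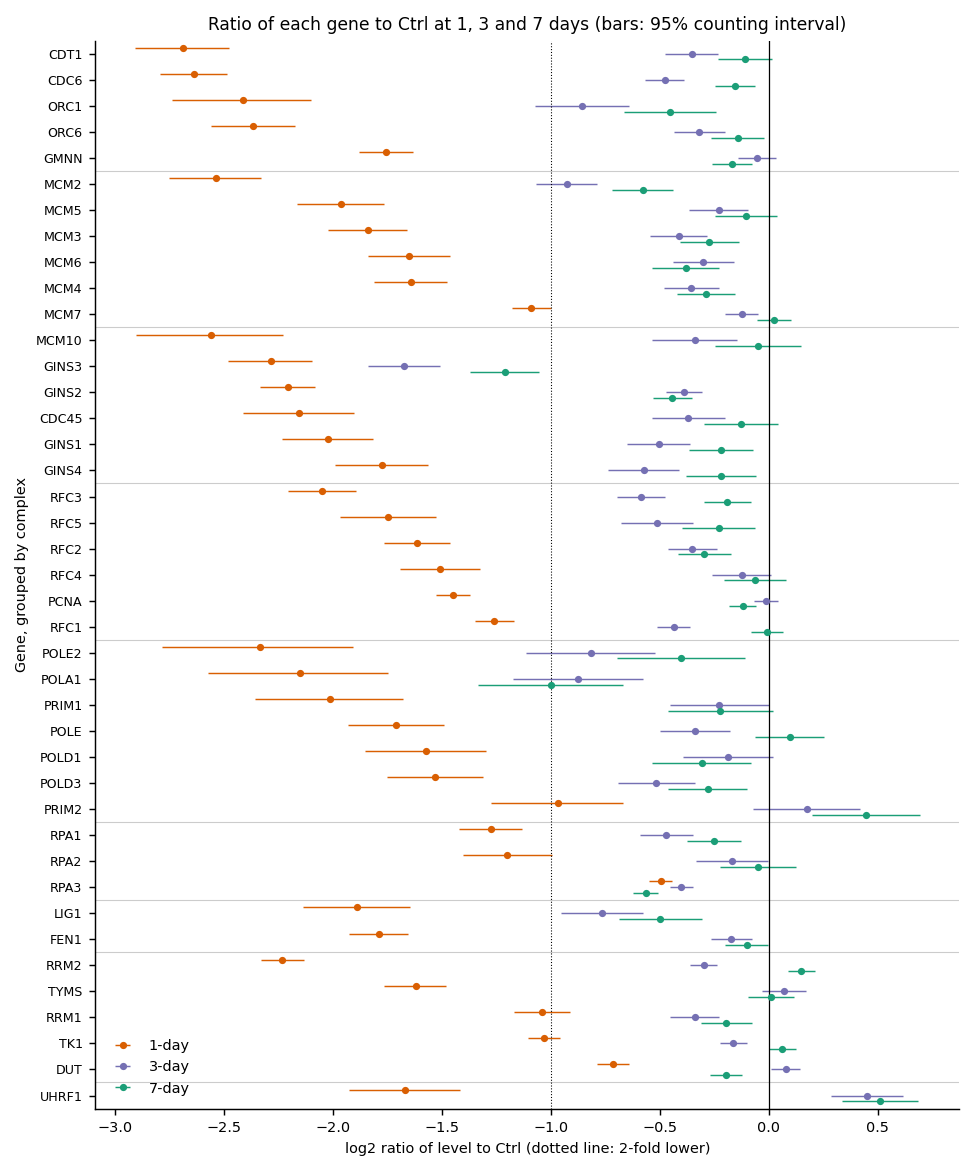
Log2 ratio of the level of each of the 41 genes to Ctrl (x axis) at 1-day, 3-day and 7-day, with genes grouped by complex (y axis) and bars for the 95% counting interval. The 1-day points lie left of 0 for every gene and left of the dotted 2-fold line for all but *PRIM2*, *DUT* and *RPA3*, while *GINS3* is the gene with 3-day and 7-day points that both lie left of that line.

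Summed over the 41 genes, the level was 2160 CPM untreated and 804, 1771 and 1915 CPM after treatment. The sum was thus at 37.2% of Ctrl after 1 day and at 82.0% and 88.7% after 3 and 7 days. By complex, the 1-day log2 ratio of the summed level was -2.27 for origin recognition and licensing, -2.16 for helicase activation, -1.82 for the flap nuclease and ligase, -1.67 for polymerases and primase, -1.56 for MCM2-7, -1.50 for clamp and loader, -1.26 for nucleotide supply and -0.63 for RPA. The 7-day log2 ratio of the sum was lowest for RPA (-0.48) and helicase activation (-0.43), between -0.19 and -0.12 for the licensing, MCM2-7, clamp, polymerase, and flap and ligase groups, and 0.01 for nucleotide supply. The sum of RPA was mostly *RPA3* (232 of 295 CPM in Ctrl). *GINS2* and *GINS3* were the largest parts of the sum of helicase activation (88.0 and 40.3 of 221 CPM in Ctrl). The 7-day median over genes was -0.25 for RPA and -0.22 for helicase activation. It was -0.30 for the flap nuclease and ligase and -0.28 for MCM2-7.

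Promoter sequences are shown here because many of the genes share a short sequence word at their start sites. Of the 41 genes, 35 matched the RefSeq promoter table for GRCh38.p14, which holds 250 bases before and 50 after each start site, and *MCM4*, *MCM5*, *GINS4*, *POLD3*, *RPA2* and *RPA3* did not. The E2F words TTTCCCGC, TTTCGCGC, TTTGCCGC and TTTGGCGC were searched on both strands, where a word on one strand can overlap another word on the opposite strand. They occurred in 19 of the 35 genes (54.3%), against 3.99% of the 27305 genes of the table. The word CCAAT occurred in 22 of the 35 (62.9%, against 39.7%) and TTTGAA, the core of the CHR element of mitotic genes, in 2 of the 35 (5.71%, against 18.2%). A match is a match of letters and not a measured binding site. Other forms of an E2F site were not searched, so a gene without a word is not shown to lack a site.

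The 120 bases before the start site are printed for 7 genes of different roles, in the direction of transcription, with the E2F words in capitals. The table has 4 start sites for *DUT*, 3 for *UHRF1* and 2 each for *PCNA* and *RRM2*. The start site printed was picked for its word in *DUT*, where the other 3 windows have none, and in *PCNA* the other window has none. *CDT1* (chr16:88803669-88803788, plus strand) and *MCM6* (chr2:135876444-135876563, minus strand) load and form the helicase, *GINS2* (chr16:85688955-85689074, minus strand) activates it, and *PCNA* (chr20:5126623-5126742, minus strand) is the clamp. *DUT* (chr15:48332077-48332196, plus strand) and *UHRF1* (chr19:4909381-4909500, plus strand) had less usual time courses, and *RRM2* (chr2:10122619-10122738, plus strand) is shown as a gene with no such word.
CDT1: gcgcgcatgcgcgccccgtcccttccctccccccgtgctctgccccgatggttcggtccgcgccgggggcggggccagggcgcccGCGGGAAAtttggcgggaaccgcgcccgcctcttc
MCM6: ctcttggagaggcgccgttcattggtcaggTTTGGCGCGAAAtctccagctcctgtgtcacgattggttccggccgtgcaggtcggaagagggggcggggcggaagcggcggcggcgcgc
GINS2: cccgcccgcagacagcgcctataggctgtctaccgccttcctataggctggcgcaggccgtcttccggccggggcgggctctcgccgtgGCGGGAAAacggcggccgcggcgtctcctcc
PCNA: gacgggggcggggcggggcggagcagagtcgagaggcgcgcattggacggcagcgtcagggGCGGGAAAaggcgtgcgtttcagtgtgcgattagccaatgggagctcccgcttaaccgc
DUT: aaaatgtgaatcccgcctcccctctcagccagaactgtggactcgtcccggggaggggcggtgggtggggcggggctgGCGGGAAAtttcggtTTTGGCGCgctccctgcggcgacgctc
UHRF1: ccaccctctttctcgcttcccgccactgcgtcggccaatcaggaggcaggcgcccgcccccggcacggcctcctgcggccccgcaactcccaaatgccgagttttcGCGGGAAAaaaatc
RRM2: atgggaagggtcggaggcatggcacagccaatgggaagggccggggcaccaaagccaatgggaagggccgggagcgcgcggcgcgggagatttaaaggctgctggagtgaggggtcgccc

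In *CDT1*, *GINS2* and *PCNA* the word began 35, 31 and 59 bases before the start site, and in the printed stretch of *MCM6* 2 words on opposite strands overlap. The printed stretch of *DUT* holds 2 words that do not overlap. Genes with and without a word covered much of the same range at 1-day, with a median log2 ratio to Ctrl of -1.89 for the 19 genes with a word (from -2.69 for *CDT1* to -0.72 for *DUT*) and -1.68 for the 16 without (from -2.56 for *MCM10* to -0.97 for *PRIM2*). *RRM2*, which has no word in its windows, had a ratio of -2.23.

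The origin recognition and licensing genes had the lowest summed level relative to Ctrl at 1-day. *CDT1* (ENSG00000167513), which brings the MCM helicase to the origin, was at 40.4 CPM untreated, then at 6.25, 31.6 and 37.5 CPM after treatment. Its 1-day level was 15.5% of Ctrl (log2 ratio -2.69, counting interval -2.91 to -2.48), and by 7-day the interval of the ratio included 0 (-0.23 to 0.01). *CDC6*, the ATPase that loads MCM together with *CDT1*, was at 76.2 CPM untreated, then at 12.2, 54.7 and 68.5 CPM after treatment. Both loading factors were thus more than 6-fold lower at 1-day and were back at 92.7% and 89.8% of Ctrl at 7-day.

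*ORC1*, the ATPase subunit of the origin recognition complex that is made and destroyed with each cycle, was at 16.2 CPM untreated, then at 3.03, 8.93 and 11.8 CPM after treatment. It was further from Ctrl at 7-day (73.1%) than *ORC6* (90.5%), another subunit, whose level was 42.9 CPM in Ctrl and 8.32, 34.4 and 38.8 CPM after treatment. *GMNN* encodes geminin, which binds and inhibits CDT1 after S phase has begun. Its level was 73.4, 21.7, 70.6 and 65.2 CPM in the 4 libraries, a log2 ratio of -1.76 at 1-day and the highest ratio of the group. The other origin recognition subunits were not among the 41 genes and differed less at 1-day, with log2 ratios of 0.14 for *ORC2*, -0.37 for *ORC3*, -0.25 for *ORC4* and -1.08 for *ORC5*.

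The 6 subunits of the MCM2-7 ring were all at least 2-fold lower at 1-day, although by unequal amounts. *MCM2* was at 38.3 CPM untreated, then at 6.59, 20.1 and 25.6 CPM after treatment. *MCM7* was at 96.2 CPM untreated, then at 45.2, 88.2 and 97.8 CPM after treatment. The 1-day log2 ratios were thus -2.54 for *MCM2*, the lowest of the ring, and -1.09 for *MCM7*, the highest, with *MCM3*, *MCM4*, *MCM5* and *MCM6* between -1.97 and -1.64. *MCM2* also stayed lowest, at 52.6% of Ctrl at 3-day and 67.0% at 7-day, while the other 5 subunits were at 75% to 91.7% of Ctrl at 3-day and at 76.7% to 102% at 7-day. *MCM7* at 7-day was above Ctrl by 0.02 on the log2 scale, a sign that turned with median-of-ratios scaling. It shares 392 bases with *AP4M1* on the opposite strand, and whether counting used strand is not given in the sources used here.

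Genes of helicase activation had log2 ratios between -2.56 and -1.78 at 1-day. *MCM10*, which acts at the step from loaded to active helicase, was at 15.8 CPM untreated, then at 2.67, 12.4 and 15.2 CPM after treatment, so that its 7-day ratio to Ctrl had an interval that included 0 (-0.25 to 0.15). *CDC45*, a subunit of the active helicase, went from 21.7 CPM in Ctrl to 4.86 CPM at 1-day and was at 16.8 and 19.8 CPM later.

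The 4 GINS subunits, which form a single complex within the active helicase, did not share a time course. *GINS3* (ENSG00000181938) was at 40.3 CPM untreated, then at 8.26, 12.6 and 17.4 CPM after treatment. Its log2 ratio to Ctrl was -2.29 (-2.48 to -2.10) at 1-day, -1.67 (-1.84 to -1.51) at 3-day and -1.21 (-1.37 to -1.06) at 7-day. At 43.1% of Ctrl after 7 days, it was the gene of the 40 furthest from its untreated level. *GINS1*, *GINS2* and *GINS4* were also low at 1-day (7.38, 19.03 and 7.38 CPM, against 30.0, 88.0 and 25.3 CPM in Ctrl) but were at 67.1% to 76.4% of Ctrl at 3-day and at 73.5% to 86.0% at 7-day. The GENCODE model of *GINS3* overlaps non-coding genes on the opposite strand.

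**Figure D2:**
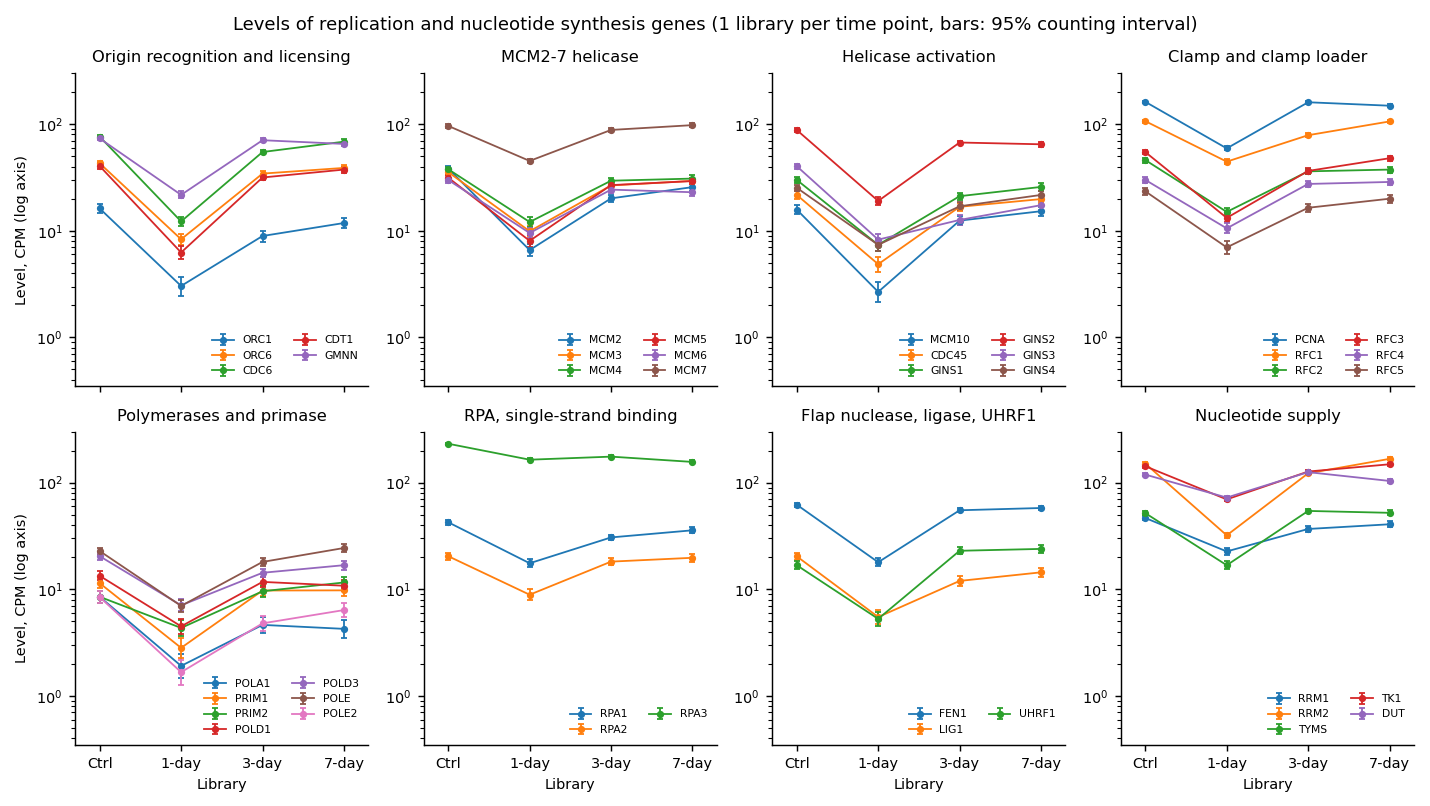
Level in CPM (y axis, log scale) of each gene in the Ctrl, 1-day, 3-day and 7-day libraries (x axis), in 8 panels by complex, with bars for the 95% counting interval. Lines drop at 1-day and climb by 3-day in every panel, least for *RPA3* (232, 164, 175 and 156 CPM), and *GINS3* climbs less than the other helicase activation genes (40.3, 8.26, 12.6 and 17.4 CPM). Levels were not scaled by transcript length, and the lines are meant for comparing a gene between libraries.

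The clamp PCNA tethers polymerases to DNA. *PCNA* (ENSG00000132646) was at 162 CPM untreated, then at 59.2, 160 and 149 CPM. It was at 36.6% of Ctrl after 1 day and at 99.1% after 3 days, where the interval of its log2 ratio included 0 (-0.07 to 0.04). The clamp loader subunits were further from Ctrl at 3-day. *RFC3* had the lowest 1-day log2 ratio of the group (-2.05), with 54.7 CPM in Ctrl and 13.2, 36.4 and 47.9 CPM at 1, 3 and 7 days. *RFC1*, the large subunit, had the highest (-1.26), with 107 CPM in Ctrl and 44.5, 78.7 and 106 CPM later. At 3-day the 5 loader subunits were at 66.6% to 91.7% of Ctrl, and at 7-day at 81.4% to 99.4%, with *RFC2* lowest and *RFC1* highest. *RFC2*, *RFC4* and *RFC5* had 1-day log2 ratios of -1.61, -1.51 and -1.75.

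Of the polymerase and primase genes, *POLE2*, a small subunit of the leading-strand polymerase, was lowest relative to Ctrl at 1-day. Its level was 8.43 CPM in Ctrl and 1.67, 4.79 and 6.38 CPM at 1, 3 and 7 days, a 1-day log2 ratio of -2.34 (-2.79 to -1.91). *POLE*, the catalytic subunit, was at 22.8 CPM untreated, then at 6.98, 18.0 and 24.4 CPM. It was thus back within the counting interval of Ctrl at 7-day (log2 ratio 0.09, -0.06 to 0.25), where *POLE2* was still at 75.7% of Ctrl.

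*POLA1*, the catalytic subunit of the polymerase that extends primers, was at 8.50 CPM untreated, then at 1.91, 4.64 and 4.25 CPM after treatment. It was at 54.5% and 50.05% of Ctrl at 3-day and 7-day, and it was lower at 7-day than any of the 41 genes other than *GINS3* when measured as a share of Ctrl. The primase subunits that work in the same complex differed from it and from each other. *PRIM1*, which makes the RNA primer, was at 11.4 CPM untreated, then at 2.82, 9.74 and 9.77 CPM. *PRIM2*, the regulatory subunit, was at 8.50 CPM untreated, then at 4.34, 9.58 and 11.6 CPM, so that its log2 ratio was -0.97 (-1.28 to -0.67) at 1-day and 0.45 (0.20 to 0.69) at 7-day. *PRIM1* overlaps *NACA* on the same strand, and *PRIM2* overlaps a non-coding gene on the same strand, so counts of either may be affected by the overlap.

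*POLD1* and *POLD3*, subunits of the lagging-strand polymerase, were at 33.6% and 34.6% of Ctrl at 1-day. They were at 80.7% and 82.3% at 7-day. *POLD1* shares 2220 bases with another protein-coding gene model on the same strand, and *POLD3* shares 4683 bases with *LIPT2-AS1* on the same strand. Counts of either may be affected by the overlap. Among other subunits of these polymerases, *POLD2* was at 170 CPM untreated, then at 79.1, 99.3 and 90.9 CPM after treatment, and was thus still low at 7-day (log2 ratio -0.91). *POLD4*, a small subunit, went the other way at 1-day, from 18.3 CPM in Ctrl to 55.2 CPM (log2 ratio 1.59), and was at 23.1 and 15.6 CPM at 3-day and 7-day.

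RPA coats exposed single-stranded DNA, and the summed level of its subunits was closer to Ctrl at 1-day than that of any other complex. That sum was mostly *RPA3*, and the 1-day median over genes was -1.20 for RPA, against -1.04 for nucleotide supply. *RPA1* and *RPA2* had levels of 42.5 and 20.4 CPM untreated, then 17.5 and 8.89 CPM at 1-day, which are log2 ratios of -1.28 and -1.20, and at 7-day they had 35.7 and 19.7 CPM. *RPA3* (ENSG00000106399), the small subunit, was at 232 CPM untreated, then at 164, 175 and 156 CPM after treatment. Its log2 ratio was -0.50, -0.40 and -0.57, and at 7-day it was 95.3% of its 1-day level, so *RPA3* alone of the 40 genes was not above its 1-day level at 7-day. *RPA3* shares 77897 bases with *UMAD1* on the opposite strand.

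*FEN1*, the nuclease that trims the flaps of Okazaki fragments, was at 62.1 CPM untreated, then at 17.9, 55.1 and 57.8 CPM after treatment. *LIG1*, the ligase that seals the trimmed fragments, was at 20.4 CPM untreated, then at 5.49, 12.0 and 14.4 CPM. Their 1-day log2 ratios were close (-1.79 and -1.89, with overlapping intervals), but at 7-day *LIG1* was at 70.8% of Ctrl and *FEN1* at 93.2%. *FEN1* shares 4259 bases with a *FADS2* gene model on the same strand.

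The nucleotide supply genes ranged most widely at 1-day. *RRM2* (ENSG00000171848), the S-phase subunit of ribonucleotide reductase, was at 151 CPM untreated, then at 32.0, 122 and 167 CPM after treatment. Its partner *RRM1* was at 46.6 CPM untreated, then at 22.6, 36.8 and 40.7 CPM. The log2 ratios were -2.23 for *RRM2* and -1.04 for *RRM1* at 1-day, and 0.15 (0.09 to 0.21) for *RRM2* and -0.20 (-0.31 to -0.08) for *RRM1* at 7-day. The subunit with the greater difference at 1-day was therefore the one above Ctrl at 7-day.

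*TYMS*, which makes thymidylate from deoxyuridylate, was at 51.8 CPM untreated, then at 16.8, 54.3 and 52.1 CPM after treatment, and the intervals of its 3-day and 7-day ratios to Ctrl included 0 (the sign at 7-day turned with median-of-ratios scaling). *TK1*, the salvage kinase for thymidine, was at 142 CPM untreated, then at 69.7, 127 and 149 CPM, a 1-day log2 ratio of -1.03, and its sign at 7-day also turned with median-of-ratios scaling. *DUT*, which removes dUTP, was at 119 CPM untreated, then at 72.4, 125 and 104 CPM, and its 1-day log2 ratio of -0.72 (-0.79 to -0.64) was the smallest difference of the group. *TYMS* shares 3261 bases with *ENOSF1* on the opposite strand.

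*UHRF1* (ENSG00000276043), which brings the maintenance DNA methyltransferase to newly copied DNA, passed its untreated level. It was at 16.8 CPM untreated, then at 5.28, 23.0 and 23.9 CPM after treatment. The log2 ratio to Ctrl was -1.67 (-1.93 to -1.42) at 1-day, 0.45 (0.29 to 0.62) at 3-day and 0.51 (0.34 to 0.68) at 7-day. At 3-day and 7-day it had the highest ratio to Ctrl of the 40 genes.

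The genes were next counted per cell, after each cell was thinned to 18000 UMIs because depth differed between libraries. A median Ctrl cell held 37 UMIs of the 41 genes (844 cells). After treatment the medians were 9, 28 and 35 (900, 677 and 549 cells). The median number of the genes detected in a cell was 19, 6, 15 and 18. The 90th percentile was 65 UMIs in Ctrl and 31, 67.4 and 65 after treatment, whereas the 10th percentile was 17, 4, 6 and 6. At 3-day and 7-day the upper end of the distribution was thus at the Ctrl value, while the lower end was near that of 1-day.

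Cells with fewer UMIs of these genes than the Ctrl 10th percentile made up 9.72% of Ctrl cells (exact binomial 95% interval 7.80 to 11.9%). After treatment their share was 72.7% (69.6 to 75.6%), 35.7% (32.1 to 39.5%) and 28.1% (24.3 to 32.0%). Cells above the Ctrl median were 49.5%, 6.56%, 35.6% and 46.3%. Without thinning the last shares were 49.3%, 11.2%, 49.5% and 60.1%, so that the order of Ctrl, 3-day and 7-day depended on depth. UMIs from free RNA in droplets were not measured here.

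**Figure D3:**
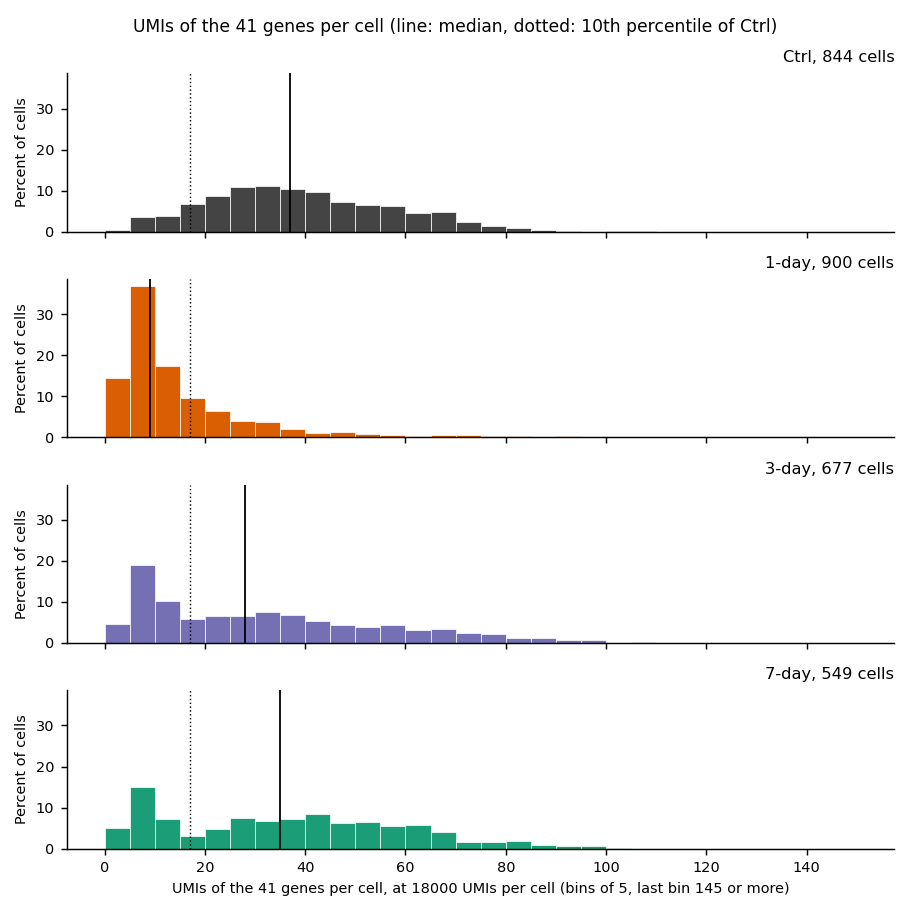
Percent of cells (y axis) by the number of UMIs of the 41 genes per cell, at 18000 UMIs per cell (x axis, bins of 5), in one panel per library, with the median as a line and the Ctrl 10th percentile of 17 UMIs dotted. Ctrl has one broad peak around its median of 37, 1-day has a peak under 10 UMIs with a tail to higher values, and 3-day and 7-day show both a low peak and a broad range above 20 UMIs.

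Cells were also assigned to cell cycle phases, with the S list of Seurat without the 20 of its genes that are among the 41, and its G2/M list. The remaining 26 S genes belong to the same program, so the phase is not independent of the genes described, and it is a range of a score rather than a cell type. Between 4.19% and 5.44% of the cells of a library lay within 0.02 of the score limit between G1 and the other phases. In Ctrl these were 45 cells, on either side of the limit, beside only 120 cells called G1. At 1-day they were 49 cells, beside 667 called G1. The share called G1 was 14.2% untreated and 74.1%, 40.8% and 31.0% after treatment. Cells called S were 46.4%, 6.56%, 28.4% and 33.5%, and cells called G2/M 39.3%, 19.3%, 30.9% and 35.5%.

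Within cells called S, the summed level of the 41 genes was 2725 CPM in Ctrl and 2271, 2951 and 3024 CPM at 1, 3 and 7 days. The log2 ratios to Ctrl were -0.26 (-0.31 to -0.22), 0.12 (0.09 to 0.14) and 0.15 (0.13 to 0.17), with intervals that left out 0. In cells called G2/M the sum was 1969 CPM in Ctrl and 1586, 2211 and 2139 CPM (-0.31, 0.17 and 0.12). In cells called G1 it was 907 CPM in Ctrl and 452, 549 and 530 CPM (-1.004, -0.72 and -0.77). The sums thus differed from Ctrl most among G1 cells at each time point. The Ctrl sum of G1 cells rests on 120 cells and 3427 UMIs, and the 1-day sum of S cells on 59 cells and 4594 UMIs. The Ctrl G1 group depended on the phase call. With the whole S list it held 198 cells, and its sum was 1173 CPM.

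Gene by gene, 2 of the 40 genes were at least 2-fold lower at 1-day within S cells (6.39% of all genes), namely *GINS3* and *POLE2*. Within G2/M cells the number was 4 of 40 (4.9% of all genes), and within G1 cells 27 of 40 (7.54% of all genes). The median log2 ratio over the 40 genes was -0.27 in S, -0.57 in G2/M and -1.53 in G1 cells. In G1 cells *CDC6*, *CDT1*, *ORC1*, *MCM2* and *MCM10* had the lowest 1-day ratios, between -3.29 and -2.86. Their counts there were low, for example 14 UMIs of *ORC1* in Ctrl and 9 at 1-day.

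*GINS3* was below Ctrl in every phase and at every time point, as were *ORC1*, *MCM2*, *POLA1* and *POLE2*. Of these, *GINS3* alone had intervals that left out 0 throughout. The log2 ratio of *GINS3* in S cells was -1.69 (-2.28 to -1.15) at 1-day, -1.24 (-1.50 to -0.99) at 3-day and -0.89 (-1.13 to -0.65) at 7-day. In G1 cells it was -2.16, -2.20 and -2.07. *UHRF1* was above Ctrl within S cells by 0.91 (0.70 to 1.12) at 3-day and 0.89 (0.68 to 1.10) at 7-day on the log2 scale. At 1-day its ratio in S cells was 0.14, with an interval that included 0 (-0.28 to 0.54). *RRM2* within S cells had log2 ratios of -0.92 at 1-day and 0.39 at 7-day, the signs it had in all cells.

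*PRIM2* in S cells was above Ctrl at 3-day and 7-day (log2 ratios 0.61 and 0.84). At 1-day its ratio there was 0.53, with an interval that included 0 (-0.13 to 1.14). *DUT* had intervals that included 0 at 1-day in each phase (log2 ratios of -0.10, 0.04 and -0.02 in G1, S and G2/M cells). In G1 cells some genes had not returned toward Ctrl by 7-day, among them *RPA3* and *TK1*, which were picked out after their values were seen. For *RPA3* the G1 level was 181 CPM in Ctrl and 127, 86.2 and 68.8 CPM at 1, 3 and 7 days, and for *TK1* it was 60.9 CPM in Ctrl and 30.4, 26.3 and 32.0 CPM. In S cells *TK1* was at 149 CPM untreated, then at 126, 173 and 198 CPM.

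**Figure D4:**
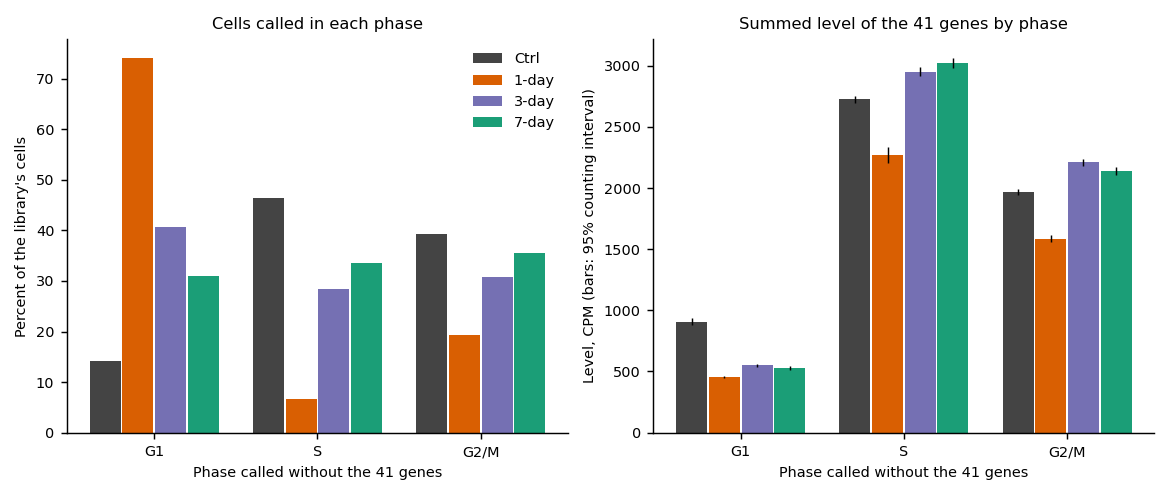
Left, percent of the cells of each library (y axis) called G1, S or G2/M (x axis). Right, summed level of the 41 genes in CPM (y axis) within each phase, with bars for the 95% counting interval. Cells called G1 make up 74.1% of 1-day cells against 14.2% of Ctrl cells, and within S cells the summed level spans 2271 to 3024 CPM.

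Genes with related functions were examined for the breadth of the difference at 1-day. Of 26 other licensing and fork genes that met the minimum, 16 were at least 2-fold lower at 1-day (8.52% of all genes), with a median log2 ratio of -1.33 over the 26, and 1 was at least 2-fold higher (9.25% of all genes). They were *ORC5*, *CDC7*, *DBF4*, *TOPBP1*, *RECQL4*, *MCM8*, *WDHD1*, *POLA2*, *POLD2*, *POLE3*, *TIMELESS*, *CLSPN*, *DSCC1*, *CHTF18*, *ATAD5* and *DONSON*, and the higher gene was *POLD4*. *DBF4*, which activates the kinase CDC7 that fires origins, was at 111 CPM untreated, then at 35.9, 89.0 and 109 CPM after treatment. *CLSPN*, a fork protein that carries the checkpoint signal, was at 53.7 CPM untreated, then at 12.5, 55.4 and 71.1 CPM. Of 8 genes of chromatin assembly behind the fork, 5 were at least 2-fold lower at 1-day (*CHAF1A*, *CHAF1B*, *ASF1B*, *SLBP* and *HELLS*), against the same 8.52% of all genes and with a median of -1.52.

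The E2F and G1/S control list had 13 of 27 genes at least 2-fold lower at 1-day (8.52% of all genes), with a median log2 ratio of -0.97. *E2F2* was at 9.67 CPM untreated, then at 0.698, 4.01 and 6.74 CPM after treatment, and *E2F1* was at 56.1, 9.98, 50.9 and 67.6 CPM. These activators of S-phase genes had 1-day log2 ratios of -3.79 and -2.49. By contrast, *E2F3* of the same list was at -0.18 (-0.36 to 0.01) at 1-day and at 0.56 at 7-day. *CCNE1*, *CCNE2*, *CCNA2*, *CDK2*, *CDK4*, *CDC25A*, *CDKN1B*, *CDKN2C*, *RBL1*, *SKP2* and *DTL* were the others at least 2-fold lower, between -2.54 and -1.17. The CDK inhibitors on the list were split. *CDKN1B* (log2 ratio -1.23 at 1-day and -0.85 at 7-day) and *CDKN2C* were among the lower genes. *CDKN2B* and *CDKN1A* were at least 2-fold higher, the 2 of 27 genes so called (9.25% of all genes). *CDKN2B* was at 9.37 CPM untreated, then at 77.1, 44.5 and 26.7 CPM, and *CDKN1A* at 46.4 CPM untreated, then at 179, 170 and 167 CPM. At 7-day *CDKN1A* was thus at a log2 ratio of 1.85, while *CDKN2B* was below its 1-day level but still above Ctrl. Whether either gene bears on the levels of the replication genes was not tested.

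Other nucleotide synthesis genes had a median nearer to that of all genes, with 8 of 30 at least 2-fold lower at 1-day (8.52% of all genes) and a median log2 ratio of -0.54. They included *DCTPP1*, *DHODH*, *UMPS*, *PPAT*, *PAICS*, *SHMT1* and *MTHFD2*, which act in folate, pyrimidine and purine synthesis or in clearing faulty nucleotides, with log2 ratios between -1.68 and -1.10. *SLC29A1*, a nucleoside transporter, was at 12.7 CPM untreated, then at 74.2, 103 and 73.2 CPM, the 1 gene of the list at least 2-fold higher. Among proliferation markers outside replication, *TOP2A* and *MKI67* had log2 ratios of -1.64 and -1.26 at 1-day and -0.47 and -0.22 at 7-day.

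**Figure D5:**
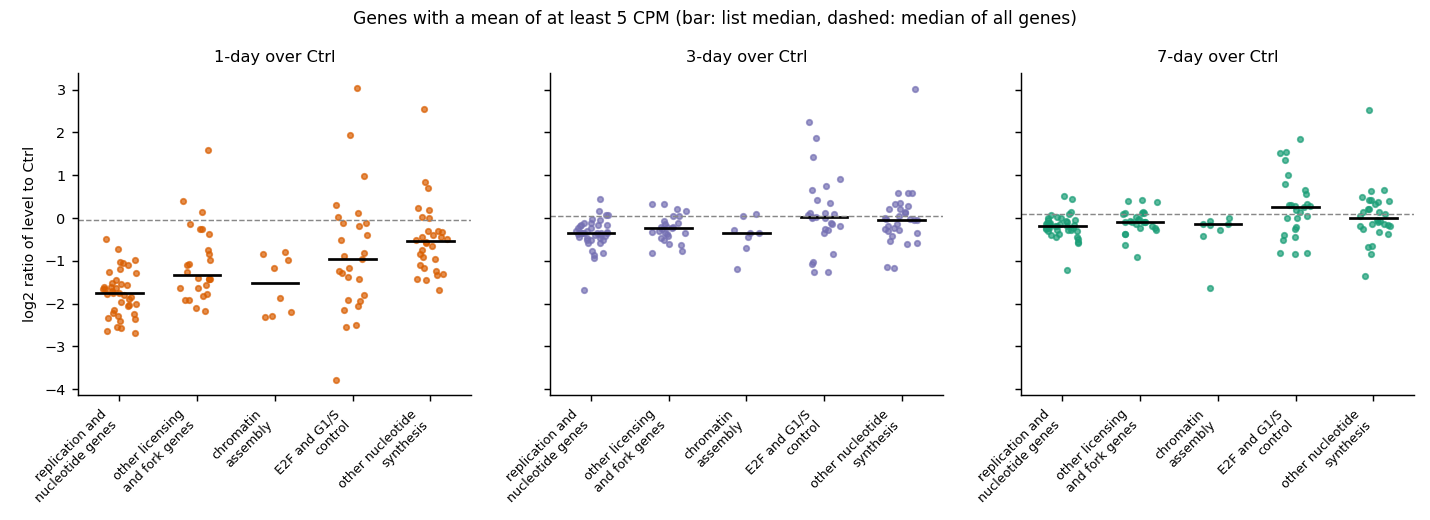
Log2 ratio to Ctrl (y axis) of each gene with a mean of at least 5 CPM at 1-day, 3-day and 7-day (panels), for the replication and nucleotide genes described here and 4 lists of related genes (x axis), with a bar for the list median and a dashed line for the median of all genes. At 1-day the list medians are -1.75, -1.33, -1.52, -0.97 and -0.54 from left to right, all below the median of all genes at -0.06.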

How the data were processed

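The authors made 10x Genomics 3′ v3 libraries and deposited counts of UMIs per gene and cell, not normalized; the submitters' processing notes name Cell Ranger 2.0.1 and GRCh38. Each matrix as read here ends within a cell, and its unfinished last cell was dropped. This left 941, 945, 712 and 572 cells, in the order Ctrl, 1-day, 3-day and 7-day, of 3372, 2601, 2253 and 2484 listed barcodes. These sums are not the depth of the whole libraries. Cells with more than 200 genes and at most 20% mitochondrial UMIs were retained (933, 937, 705 and 569 cells). Scrublet in scanpy 1.11.5 marked 40 cells (1.27%), which were retained. The median mitochondrial share was 8.31, 7.42, 6.22 and 6.26%.

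UMIs were summed per library and scaled to CPM, with exact Poisson intervals for levels and exact conditional intervals for log2 ratios (scipy 1.17.1). They cover counting error only. With 1 library per group no test was made, and a gene was counted as lower or higher at a 2-fold difference among genes with a mean of at least 5 CPM. Cells thinned to 18000 UMIs were used for counts per cell and for phases (Seurat 5.3.0 lists), and 89, 37, 28 and 20 shallower cells were left out of these. Levels within phases use all UMIs of the cells called. The intervals were also run on simulated Poisson counts, which hold counting error only and so cannot test the spread between cells or libraries.

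All 41 genes are named, together with the genes of the related lists at least 2-fold apart between 1-day and Ctrl, *TOP2A* and *MKI67*, and the highest and lowest of each complex. Some genes that this rule or the check of the treatment takes in are not reported here. The genes and lists were chosen with earlier results of these data known. Alternatives were a mitochondrial limit of 10%, marked doublets left out, median-of-ratios scaling, means over cells, thinning, G1 cells only, a 1.5-fold call, other minimum levels and other phase calls. Gene models are those of GENCODE on GRCh38 and promoters those of RefSeq on GRCh38.p14. Regression and SCTransform normalization, which the study's methods describe, were not applied.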

Additional observations from a re-analysis of the deposited data

Results flagged for a closer look

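Among the 41 genes, 4 had log2 ratios to Ctrl of opposite sign at different time points, each with a counting interval that left out 0. The difference was not tested, since there was 1 library at each time. *PRIM2* was at -0.97 at 1-day and 0.45 at 7-day. *RRM2* was at -2.23 at 1-day, -0.30 at 3-day and 0.15 at 7-day. *DUT* was at -0.72 at 1-day, 0.076 at 3-day and -0.20 at 7-day. *UHRF1* was at -1.67 at 1-day, 0.45 at 3-day and 0.51 at 7-day. These signs were the same under each alternative run on the levels, from another mitochondrial limit to G1 cells only. In G1 cells, however, the intervals included 0 for *PRIM2* and *UHRF1* at each of these times, both at 3.44 CPM in Ctrl. They also included 0 for *RRM2* at 3-day and 7-day and for *DUT* at 1-day and 3-day. Within G2/M cells *RRM2* was above Ctrl at 3-day (0.34, 0.25 to 0.43). Within S cells the 1-day ratios of 3 genes were above 0, with intervals that included 0. They were 0.53 (-0.13 to 1.14) for *PRIM2*, 0.14 (-0.28 to 0.54) for *UHRF1* and 0.04 (-0.14 to 0.22) for *DUT*. Only *RRM2* of the 4 was below Ctrl in S cells at 1-day (-0.92, -1.14 to -0.71).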

How the results depend on the processing

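No paired analysis was possible because no time point had more than 1 library. The main limits are that every ratio compares 1 library with another, that part of each library was read, and that phases come from genes of the same program.

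The sign of the ratio to Ctrl was kept by all 40 genes at 1-day under each of the 6 alternatives run on the levels, by 38 to 40 at 3-day (38 with thinning) and by 35 to 40 at 7-day (35 with thinning, 36 with G1 cells only, 37 with median-of-ratios scaling). With G1 cells only, where 29 of the genes met the minimum, 19, 9 and 10 were at least 2-fold below Ctrl at 1, 3 and 7 days, and 9 and 9 were at least 2-fold above 1-day at 3-day and 7-day. The log2 ratios of the summed level were then -1.004, -0.72 and -0.77 to Ctrl and 0.28 and 0.23 to 1-day. In this setting *POLD3* turned to -0.0025 and -0.018 at 3-day and 7-day relative to 1-day, and *LIG1* to -0.35 at 7-day. In all, 5 of the 40 signs turned at 3-day and 4 at 7-day relative to 1-day, among them *RRM1* (-0.53), *RPA3* (-0.56) and *TK1* (-0.21) at 3-day, and *RRM1* (-0.32) and *DUT* (-0.35) at 7-day. With a mean of at least 20 CPM, 25 genes remained, of which 23, 0 and 0 were at least 2-fold below Ctrl and 18 and 22 above 1-day. At 3-day, 6 genes were at least 1.5-fold below Ctrl, and thinning gave 2 at 2-fold. Shares of all genes under these alternative settings are not given here, so these counts cannot be set against a background.

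For the sum, a mitochondrial limit of 10% gave -1.39 at 1-day and 1.10 and 1.22 for 3-day and 7-day over 1-day. Median-of-ratios scaling, which moved the median of all genes by -0.15 for 7-day over 1-day, gave -1.34 at 1-day, -0.24 at 7-day, and 1.07 and 1.10 over 1-day. Means over cells gave -0.13 at 7-day and 1.30 over 1-day, and thinning -0.13 and 1.31. The shares of cells above the Ctrl median were 11.2%, 49.5% and 60.1% after treatment when cells were not thinned.

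Phases from unthinned cells gave ratios of the sum to Ctrl of -0.89 in G1, -0.16 in S, -0.27 in G2/M and -0.40 in S or G2/M cells at 1-day, -0.66 in G1, 0.14 in S and 0.20 in G2/M at 3-day, and 0.18 in G2/M at 7-day. The whole S list gave -1.29, -0.054 and -0.37 in G1, S and G2/M at 1-day, -0.82 in G1 and 0.080 in S at 3-day, and -0.88, 0.083 and 0.17 at 7-day. Cells with a *TOP2A* or *MKI67* UMI gave -0.84, 0.036 and 0.025 at 1, 3 and 7 days, and cells without one -1.46 and -0.94 at 1-day and 3-day. The cause of these shifts was not tested. Of the values of single genes and complexes, 1166 stayed within the counting interval, 301 moved beyond it (199 with G1 cells only) and 3 that had been at least 2-fold apart turned sign. Among the main results, 62 alternative values were classed as the same and 52 as moved.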

Other observations

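Some genes of the related lists were still well below Ctrl at 7-day, and these were chosen after their values were seen. *ASF1A*, a histone chaperone, was at 48.8 CPM untreated, then at 27.9, 21.2 and 15.8 CPM after treatment, whereas its paralog *ASF1B* was at 42.3 CPM untreated, then at 9.17, 31.0 and 34.7 CPM. *SHMT1*, the cytosolic serine hydroxymethyltransferase, was at 10.4 CPM untreated, then at 3.89, 4.73 and 4.10 CPM, while the mitochondrial *SHMT2* was at 32.4 CPM untreated, then at 18.2, 24.2 and 33.4 CPM. *DHODH*, which makes orotate for pyrimidines, was at 12.6 CPM untreated, then at 3.95, 5.57 and 7.09 CPM.

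Other G1/S genes were above Ctrl at 7-day. *CCNE1*, the cyclin that drives S-phase entry with CDK2, was at 19.1 CPM untreated, then at 7.41, 32.3 and 38.4 CPM after treatment. *E2F7*, a repressor of E2F targets, was at 12.9 CPM untreated, then at 14.1, 24.3 and 33.1 CPM, and *CCND1* was at 205 CPM untreated, then at 405, 548 and 596 CPM. No difference was tested, and none has a replicate check.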
